A study of Mus musculus with 17 samples.

Results

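The collagen genes of the mouse cortex were examined by bulk RNA sequencing in WT mice, PS19 mice and CgA-KO/PS19 mice. Collagen genes were taken as every gene of the deposited count table whose symbol reads Col, a number, a and a number, which gave 44 of 56953 genes. All 44 passed the low count filter and entered the test, 29 of them averaged more than 1 CPM (counts-per-million, taken relative to the normalised depth of each library) in each genotype, and 29 had a count in every library. The libraries were made from polyA RNA of prefrontal cortex of 8-month-old B6C3F1/J mice, with 5 WT, 6 PS19 and 6 CgA-KO/PS19 libraries. This age is the one in the methods of the paper, and its figure legend for the sequencing gives an older age. PS19 mice, labelled hTau, carried the 1N4R isoform of human Tau with the P301S mutation, driven by the Prnp promoter from an insertion on chromosome 3. CgA-KO/PS19 mice, labelled CgA-KO/hTau, carried the same transgene and in addition lacked Chga, the gene of chromogranin A (CgA), through a congenital whole-body Cre-loxP deletion. Neither WT nor PS19 mice carried the deletion, and no library of CgA-KO mice without the transgene was analysed here, so that the effect of losing Chga was seen only on the PS19 background. The labels give no sex, litter or dissection date and do not say which libraries come from separate extractions, so the p-values measure the spread between these libraries. The paper states that each genotype held both males and females, without naming the libraries of each sex.

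Collagens are extracellular proteins whose chains wind around each other into a helix. Fibrillar collagens form the tough fibres of the meninges and of large vessels, basement membrane collagens form the sheets under endothelium, pericytes and the pia, and a further set is made by neurons themselves, among them transmembrane collagens and collagens that are shed near synapses. In brain tissue, fibroblasts of the meninges and of vessel walls are the usual source of type I and type III collagen, so that the level of these genes in a piece of cortex depends in part on how much of the surface membrane it carries. In bulk tissue, fewer cells of a type and less RNA per cell cannot be told apart. The 44 genes were sorted by structure and site of expression into 9 fibrillar, 8 basement membrane, 5 neuronal, 6 type VI, 8 FACIT (collagens that sit on fibrils, with an interrupted helix) and 8 other genes. Col24a1, a fibril-type collagen, and Col11a1, which pairs with Col11a2 of the fibrillar group, were grouped as neuronal. The fibrillar group therefore does not hold every fibril-type collagen.

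The libraries differed within and between genotypes in depth and in the tissue markers they held. Total counts ran from 8838334 in WT replicate 4 to 227651681, and 14 of the 44 collagen genes had 0 counts in WT replicate 4, where a count of 0 allows up to 1.03 CPM. Cortical neuron markers were present throughout, with Slc17a7, the vesicular glutamate transporter of cortical excitatory neurons, at 492 to 1645 CPM. Drd2, a dopamine receptor gene typical of striatum, stood at 33.4 to 132 CPM in WT, 0.60 to 1.47 CPM in PS19 and in CgA-KO/PS19 replicates 4 to 6, and 10.9 to 83.0 CPM in CgA-KO/PS19 replicates 1 to 3. WT replicate 5 also held the choroid plexus transcript Ttr at 1023 CPM, against at most 9.92 CPM in the other 16 libraries. Ddx3y, a Y-linked gene, stood at 49.8 to 76.8 CPM in the libraries numbered 1 to 3, whatever the genotype, and did not exceed 0.058 CPM elsewhere, so that the CgA-KO/PS19 libraries rich in Drd2 were also those with Ddx3y, and in that genotype these features cannot be told apart. PS19 replicates 4, 5 and 6 resembled each other far more closely than other libraries of a genotype did, as did CgA-KO/PS19 replicates 1 and 3. For each pair, the spread of the log2 count ratio over 3761 abundant genes was taken as a scaled median absolute deviation about its median. It was 0.052 to 0.061 for these PS19 pairs and 0.098 for the CgA-KO/PS19 pair, against at least 0.146 for all other pairs within a genotype. The labels do not say whether these libraries come from separate mice. Chga itself was at 152 to 180 CPM in WT and PS19 and at 0 CPM in every CgA-KO/PS19 library.

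The question put to the data was which collagen genes differed between WT and PS19 cortex, and which of them differed again when PS19 mice lacked CgA. A total of 3 of the 5 neuronal collagens, Col11a1, Col23a1 and Col24a1, were higher in both WT and CgA-KO/PS19 than in PS19, as was the type VI gene Col6a1. Col10a1 was higher in WT than in PS19 in the main edgeR fit, the quasi-likelihood test on all libraries without a covariate. In CgA-KO/PS19 DESeq2 called it and the main edgeR fit did not. Col6a4 was higher and Col22a1 lower in CgA-KO/PS19 than in PS19. In the main edgeR fit no gene grouped as fibrillar or as basement membrane was called in any comparison. DESeq2 called Col1a2 and Col15a1 lower in WT than in PS19. It also called Col2a1 and Col5a1 higher and Col1a2 lower in CgA-KO/PS19 than in PS19. Against PS19, 5 of 44 collagen genes (11.4%) were higher in WT at an adjusted p under 0.05, where 3.95% of all 23062 genes tested were, and 0 of 44 were lower by edgeR's quasi-likelihood test (6 at an unadjusted p under 0.05, 3 by DESeq2), where 1.95% of all genes were. In CgA-KO/PS19, 5 of 44 (11.4%) were higher than in PS19, against 5.50% of all genes, and 1 of 44 (2.27%) was lower, against 4.22% of all genes. Both comparisons use the same PS19 libraries, so a PS19 library that stood apart would enter both. Between CgA-KO/PS19 and WT, 0 of 44 were higher by edgeR's quasi-likelihood test (2 at an unadjusted p under 0.05, 1 by DESeq2), against 3.56% of all genes, and 1 of 44 was lower, against 2.89%.

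**Figure D1:**
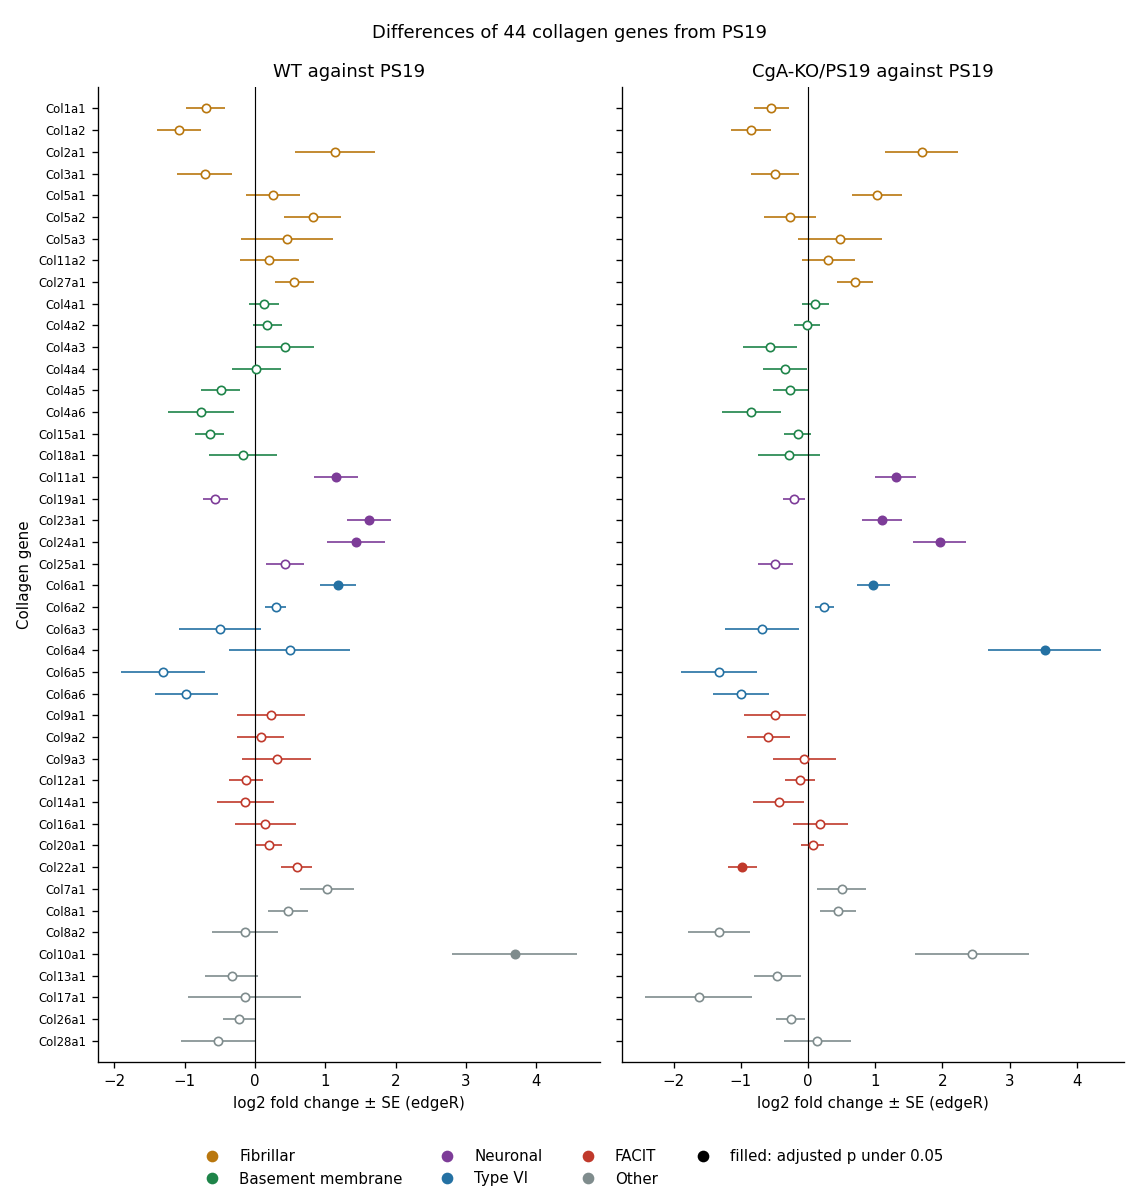
The log2 fold change of each of the 44 collagen genes against PS19 is plotted with its standard error from edgeR, for WT on the left and CgA-KO/PS19 on the right, coloured by structural group. Filled points have an adjusted p under 0.05: Col11a1, Col23a1, Col24a1 and Col6a1 are filled and right of 0 in both panels, Col10a1 in the left panel, Col6a4 in the right, and Col22a1 is filled and left of 0 in the right panel.

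The 3 neuronal genes that moved together were described first. Col11a1 encodes a chain of type XI collagen that is made in cortical neurons as well as in cartilage, Col23a1 a transmembrane collagen, and Col24a1 a fibril-type collagen of restricted expression. Col11a1 lies at chr3:114030540-114220718 on the plus strand of GRCm38, Col23a1 at chr11:51289920-51583918 on the plus strand and Col24a1 at chr3:145292472-145552011 on the plus strand, by GENCODE M21. The 250 bases before the first base of each RefSeq transcript (GRCm38.p6) are shown because these genes were higher together, and no exon in GENCODE M21 overlaps them. Capitals mark CCAAT (or ATTGG) and the GC box GGGCGG (or CCGCCC), and TATAAA (or TTTATA) was also searched on both strands. The windows, each read 5′ to 3′ on the strand of the gene, are chr3:114030290-114030539 for Col11a1, chr11:51289670-51289919 for Col23a1 and chr3:145292222-145292471 for Col24a1.
Col11a1: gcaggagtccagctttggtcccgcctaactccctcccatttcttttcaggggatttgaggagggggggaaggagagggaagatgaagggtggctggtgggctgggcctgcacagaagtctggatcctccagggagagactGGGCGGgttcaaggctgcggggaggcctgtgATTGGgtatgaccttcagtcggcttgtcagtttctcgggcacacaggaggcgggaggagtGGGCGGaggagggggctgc
Col23a1: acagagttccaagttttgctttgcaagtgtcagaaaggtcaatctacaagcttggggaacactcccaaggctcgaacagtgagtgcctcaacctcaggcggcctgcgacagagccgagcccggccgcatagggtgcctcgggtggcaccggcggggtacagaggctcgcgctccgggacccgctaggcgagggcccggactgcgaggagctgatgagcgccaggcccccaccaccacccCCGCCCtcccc
Col24a1: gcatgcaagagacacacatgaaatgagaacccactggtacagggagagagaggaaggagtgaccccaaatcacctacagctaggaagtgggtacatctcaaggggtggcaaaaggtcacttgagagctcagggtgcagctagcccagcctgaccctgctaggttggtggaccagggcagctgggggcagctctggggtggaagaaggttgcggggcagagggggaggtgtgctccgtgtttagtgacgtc

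The Col11a1 window held 1 CCAAT match, 79 bases before the start, and 2 GC boxes, 110 and 19 bases before it. Col23a1 had 1 GC box 11 bases before the start, and Col24a1 held none of these letters. TATAAA was in none of the windows shown. Among 32851 RefSeq windows of the same length, 12.4% held TATAAA, 33.8% CCAAT and 32.7% the GC box on either strand. Of the 44 collagen genes 35 matched a RefSeq window, and of their 38 windows 5 held TATAAA, 13 CCAAT and 22 the GC box. The GC content was 62.4% for Col11a1, 66.0% for Col23a1 and 58.0% for Col24a1, beside a median of 52.4% over all windows.

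Col11a1 was at 13.7, 5.30, 8.34, 5.47 and 7.73 CPM in WT replicates 1 to 5. In PS19 it ran from 2.61 to 4.68 CPM (mean 3.66 ± 0.938, SD, n = 6). In CgA-KO/PS19 it was 12.2 to 13.5 CPM in replicates 1 to 3 and 4.71 to 5.59 CPM in replicates 4 to 6. All WT and CgA-KO/PS19 libraries lay above every PS19 library, although the lowest CgA-KO/PS19 value exceeded the highest PS19 value by little. The log2 fold change against PS19 was 1.16 ± 0.316 (SE) in WT, adjusted p = 0.0373, and 1.31 ± 0.304 in CgA-KO/PS19, adjusted p = 0.0153. The call in WT was lost when any 1 of 8 libraries was left out (WT replicates 1, 3 and 5, PS19 replicates 1, 2, 3, 4 and 6), with adjusted p = 0.0531 to 0.103, and the call in CgA-KO/PS19 was kept in all 17 such fits. Leaving out 1 near-identical library kept its close match in the fit, and averaging such libraries ended both calls. Among the libraries without Ddx3y, the CgA-KO/PS19 difference was 0.20 on the log2 scale (adjusted p = 0.637), and among those with Ddx3y it was 2.21 (adjusted p = 0.00118). For this and the genes that follow, the difference between these sets of libraries was not itself tested. The PS19 libraries without Ddx3y were all near-identical, and those with it include the near-identical CgA-KO/PS19 pair. The adjusted p-values within these sets may therefore be too small.

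Col23a1 stood at 13.7, 14.7, 13.8, 5.13 and 24.0 CPM in WT. PS19 values were 3.36 to 5.73 CPM (mean 4.69 ± 0.910), and CgA-KO/PS19 values were 15.2, 8.09, 15.96, 8.37, 6.97 and 5.57 CPM in replicates 1 to 6. Only the shallowest WT library and the lowest CgA-KO/PS19 library fell within the PS19 range. Its log2 fold change was 1.62 ± 0.314 in WT (adjusted p = 0.00471), the call being kept whichever library was left out, and 1.10 ± 0.300 in CgA-KO/PS19 (adjusted p = 0.0299). The latter call was lost without PS19 replicate 1, 2, 3 or 6 or CgA-KO/PS19 replicate 1 or 3, with adjusted p = 0.0517 to 0.0741. Within the libraries that carried Ddx3y the CgA-KO/PS19 difference was 1.75 (adjusted p = 0.00128), and within those without it 0.35 (adjusted p = 0.754).

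Col24a1 was at 9.49, 3.63, 6.95, 3.54 and 2.36 CPM in WT, 1.02 to 3.22 CPM in PS19 (mean 1.94 ± 0.756), and 8.94, 14.6, 9.22, 3.59, 4.39 and 4.33 CPM in CgA-KO/PS19. All 6 CgA-KO/PS19 libraries exceeded every PS19 library, whereas WT replicate 5 fell inside the PS19 range. Its log2 fold change was 1.96 ± 0.395 in CgA-KO/PS19 (adjusted p = 0.00753), kept whichever library was left out, and 1.44 ± 0.406 in WT (adjusted p = 0.0435). Averaging the near-identical libraries ended both calls. In WT the call was lost without WT replicate 1 or 3, PS19 replicate 2, 3, 4, 5 or 6, or CgA-KO/PS19 replicate 1, with adjusted p = 0.0502 to 0.118. The CgA-KO/PS19 difference was 2.55 (adjusted p = 0.00452) with Ddx3y and 1.05 (adjusted p = 0.0967) without it.

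The 2 remaining neuronal collagens did not follow this pattern. Col19a1, which is made by interneurons and is shed into the matrix near synapses, was at 18.9, 10.6, 13.4, 13.8 and 8.17 CPM in WT against 15.8 to 21.1 CPM in PS19 and 12.8 to 19.0 CPM in CgA-KO/PS19, with overlapping ranges. Its log2 fold change against PS19 was -0.56 ± 0.173 in WT (adjusted p = 0.0636) and -0.21 ± 0.162 in CgA-KO/PS19 (adjusted p = 0.411). DESeq2 called the WT difference, as did edgeR without WT replicate 1 (-0.74, adjusted p = 0.00973). Col25a1, the gene of the transmembrane collagen first isolated from amyloid plaques, was the most abundant neuronal collagen per transcript length in WT, at 3.33 ± 1.55 RPKM (CPM divided by exon length in kilobases), ahead of Col23a1 at 2.49 ± 1.17 RPKM, a gap within the spread between libraries. It ranged from 21.3 CPM to 75.1 CPM in WT, from 22.0 to 38.3 CPM in PS19 and from 13.3 to 29.4 CPM in CgA-KO/PS19. Neither difference from PS19 passed the test (log2 fold change 0.42 ± 0.271 in WT and -0.49 ± 0.260 in CgA-KO/PS19), and between CgA-KO/PS19 and WT it was -0.91 ± 0.272 with adjusted p = 0.0524, and was called by DESeq2 and by edgeR without WT replicate 4 or CgA-KO/PS19 replicate 4 or 5 (adjusted p = 0.0157 to 0.0488).

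**Figure D2:**
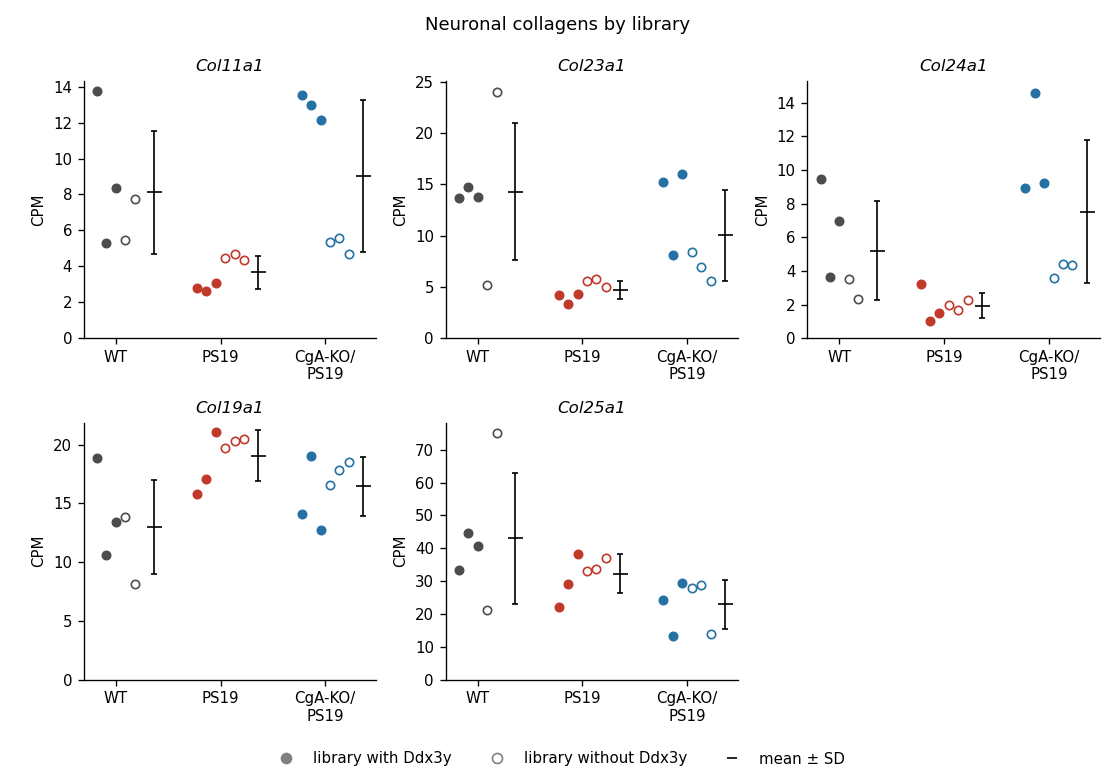
The 5 neuronal collagens are plotted in CPM for each library, grouped by genotype, with the mean and SD beside the points. Filled points are libraries with Ddx3y (replicates 1 to 3) and open points those without it: for Col11a1, the 3 filled CgA-KO/PS19 points lie at 12.2 to 13.5 CPM and the 3 open ones at 4.71 to 5.59 CPM, while PS19 stays at or under 4.68 CPM.

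Markers of other tissue also differed between the genotypes. The mean log2(CPM + 1) of 15 striatal markers was 5.24 to 7.07 in WT, 3.21 to 3.36 in PS19, 4.37 to 6.45 in CgA-KO/PS19 replicates 1 to 3 and 3.19 to 3.29 in replicates 4 to 6. Of these markers, 13 of 15 were higher in WT than in PS19 (3.95% of all genes) and 10 of 15 were higher in CgA-KO/PS19 (5.50%). Isl1, a transcription factor gene of striatal neurons, was at 0 CPM in every PS19 library and in CgA-KO/PS19 replicates 4 to 6. Penk (enkephalin) differed by 3.99 in WT and 2.10 in CgA-KO/PS19 on the log2 scale, and Sh3rf2 by 5.72 and 3.99. Within WT the collagen genes differed in their order. Col24a1 was lowest in replicate 5 (2.36 CPM, striatal level 6.95), and both it and Col11a1 were highest in replicate 1 (9.49 and 13.7 CPM, level 5.60). Col23a1 was highest in replicate 5 (24.0 CPM) and lowest in replicate 4 (5.13 CPM, level 5.24). With the striatal level as a covariate, the WT difference of Col11a1 was 0.26 (adjusted p = 0.723), that of Col23a1 0.42 (adjusted p = 0.443) and that of Col24a1 0.77 (adjusted p = 0.441). For CgA-KO/PS19 the same covariate left 0.82 for Col11a1 (adjusted p = 0.0936), 0.50 for Col23a1 (adjusted p = 0.170) and 1.61 for Col24a1 (adjusted p = 0.0381). In WT no library lacked striatal markers, so genotype and striatal content cannot be told apart there. When the near-identical libraries were averaged into 1 each, Col23a1 in WT was the only neuronal collagen called against PS19.

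The 9 genes grouped as fibrillar were examined next, as they include the type I and type III genes of meningeal fibroblasts. In the main edgeR fit none of the 9 was called in any comparison. Their median log2 fold change was 0.26 in WT and 0.30 in CgA-KO/PS19, beside -0.01 and 0.03 over all genes tested. The group was not uniform: Col1a1, Col1a2 and Col3a1, which make up the type I and type III fibres of meningeal fibroblasts, had negative values in both comparisons, and the remaining 6 had positive values in both apart from Col5a2 in CgA-KO/PS19. A total of 6 collagen genes had an unadjusted p under 0.05 on the lower side in WT, where edgeR called 0 and DESeq2 called 3 (Col19a1, Col15a1 and Col1a2). In CgA-KO/PS19 against PS19, DESeq2 called 3 fibrillar genes: Col2a1 (adjusted p = 0.0126) and Col5a1 (adjusted p = 0.0329) higher and Col1a2 (adjusted p = 0.0383) lower.

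Col1a1, the first chain of type I collagen, was at 2.92, 6.16, 4.88, 5.25 and 6.60 CPM in WT, 3.42 to 11.03 CPM in PS19 (median 9.85) and 3.75 to 7.13 CPM in CgA-KO/PS19 (median 6.03). Within PS19, replicates 3 to 6 were at 9.60 CPM or more, above every library of the other genotypes, and replicates 1 and 2 lay inside their range. The log2 fold change was -0.70 ± 0.273 in WT (adjusted p = 0.144) and -0.54 ± 0.256 in CgA-KO/PS19 (adjusted p = 0.175). Without PS19 replicate 1 the WT difference was called. It was also called among the libraries without Ddx3y (-0.83, adjusted p = 0.0350), where all PS19 libraries were near-identical.

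Col1a2, its partner chain, was at 3.91, 9.88, 9.79, 4.11 and 8.39 CPM in WT, 6.14 to 20.3 CPM in PS19 (median 17.1) and 4.14 to 12.3 CPM in CgA-KO/PS19 (median 8.56). The differences were -1.08 ± 0.317 in WT (adjusted p = 0.0522) and -0.85 ± 0.296 in CgA-KO/PS19 (adjusted p = 0.0755). Here too, PS19 replicate 1 overlapped the other genotypes. By edgeR Col1a2 was called in WT without PS19 replicate 1 or CgA-KO/PS19 replicate 2 or 4 (adjusted p = 0.0151 to 0.0484), and in CgA-KO/PS19 without PS19 replicate 1 or CgA-KO/PS19 replicate 4 (adjusted p = 0.0312 and 0.0427). Col3a1, the single chain of type III collagen, had its lowest values in WT replicate 1 (0.550 CPM), PS19 replicate 1 (0.656 CPM) and CgA-KO/PS19 replicate 2 (0.737 CPM), with 1.86 to 2.08, 2.55 to 3.47 and 1.91 to 2.51 CPM in the other libraries of each genotype. Its log2 fold changes were -0.72 (adjusted p = 0.311) and -0.49 (adjusted p = 0.393), neither called.

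The remaining fibrillar genes varied mostly between libraries. Col5a1, a chain of the type V collagen that starts type I fibrils, was at 24.9 CPM in WT replicate 1 and at 2.51 to 9.79 CPM in the other WT libraries, at 5.27 to 16.2 CPM in PS19 and at 13.2 to 24.6 CPM in CgA-KO/PS19, with a difference of 1.02 ± 0.371 in CgA-KO/PS19 (adjusted p = 0.0845). That difference was called when WT replicate 1 or 4 or PS19 replicate 1 was left out (adjusted p = 0.0361 to 0.0489), and the one between CgA-KO/PS19 and WT without WT replicate 1 (adjusted p = 0.0326). Col5a2 was at 0.492 to 2.23 CPM in PS19 and had a log2 fold change of 0.82 in WT and one of -0.27 in CgA-KO/PS19. Log2 fold changes in WT were 0.46 for Col5a3, 0.56 for Col27a1 and 0.20 for Col11a2, and those in CgA-KO/PS19 were 0.48, 0.70 and 0.30. Col27a1 was called in CgA-KO/PS19 without CgA-KO/PS19 replicate 4 or 6 (adjusted p = 0.0484 and 0.0289), and Col5a2 was called lower in CgA-KO/PS19 than in WT without WT replicate 4 (-1.31, adjusted p = 0.0337). Col11a2, which pairs with Col11a1 in type XI collagen, was at 20.9 and 22.5 CPM in the near-identical CgA-KO/PS19 replicates 1 and 3 and at 2.54 to 8.65 CPM in the others. Col2a1, the cartilage collagen, was at 0.262 to 0.402 CPM in PS19, and its log2 fold change was 1.14 ± 0.563 in WT (adjusted p = 0.257) and 1.69 ± 0.543 in CgA-KO/PS19 (adjusted p = 0.0556), the latter called without WT replicate 4 or CgA-KO/PS19 replicate 4 or 6 (adjusted p = 0.0185 to 0.0492).

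A list of 20 meningeal fibroblast markers, none of them a collagen, was set beside these genes. Its level, the mean log2(CPM + 1), was 1.80 to 2.82 in WT (median 2.66), 2.25 to 3.17 in PS19 (median 3.07) and 1.96 to 2.85 in CgA-KO/PS19 (median 2.55), so the ranges overlapped. In WT 1 of 20 markers was higher (3.95% of all genes) and 0 were lower (1.95%) than in PS19, with a median log2 fold change of -0.70. In CgA-KO/PS19 0 were higher (5.50% of all genes) and 3 were lower (4.22%), with a median of -0.49. The lower genes were Cemip, a hyaluronan-degrading enzyme, at -0.72 (adjusted p = 0.0330), Islr at -1.02 (adjusted p = 0.0311) and the transcription factor gene Foxc2 at -1.74 (adjusted p = 0.0163). The single gene that was higher in WT was Dcn, which encodes the collagen-binding proteoglycan decorin, at 3.88, 51.5, 5.36, 22.1 and 60.8 CPM in WT against 3.93 to 8.36 CPM in PS19 and 5.48 to 11.6 CPM in CgA-KO/PS19 (log2 fold change 2.11, adjusted p = 0.0208). WT replicates 2, 4 and 5 carried this difference, while WT replicate 3 lay in the PS19 range and WT replicate 1 just below it. Ogn, a defining marker of leptomeningeal fibroblasts, was at 2.86 to 7.53 CPM in WT, 4.59 to 12.8 CPM in PS19 and 2.63 to 10.7 CPM in CgA-KO/PS19, with log2 fold changes of -0.85 and -0.66 that did not pass the test.

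Col1a1 was lowest in the library of each genotype that had the lowest meningeal level, at 2.92 CPM in WT replicate 1 (list level 1.80), 3.42 CPM in PS19 replicate 1 (2.25) and 3.75 CPM in CgA-KO/PS19 replicate 2 (1.96). The highest meningeal levels, 3.05 to 3.17 in PS19 replicates 3 to 6, went with the highest Col1a1 values. On this list CgA-KO/PS19 replicates 1 to 3 (1.96 to 2.37) and 4 to 6 (2.74 to 2.85) form separate clusters, and 3 of the PS19 libraries are near-identical, so that no correlation across libraries is given. With the meningeal level as a covariate, the log2 fold change of Col1a1 became -0.13 in WT and 0.03 in CgA-KO/PS19, that of Col3a1 0.10 and 0.36, and that of Col1a2 -0.45 and -0.22, none of them called. In WT under this covariate, Col23a1 (1.67, adjusted p = 0.0140) and Col6a1 (1.04, adjusted p = 0.0454) were called. Not called in WT were Col10a1 at 3.63 (adjusted p = 0.0719), Col11a1 at 0.73 (adjusted p = 0.278) and Col24a1 at 0.73 (adjusted p = 0.256). In CgA-KO/PS19 against PS19 none of the 6 genes was called, with log2 fold changes of 0.87 for Col11a1, 1.16 for Col23a1, 1.22 for Col24a1, 0.80 for Col6a1, 3.33 for Col6a4 and -0.77 for Col22a1 and adjusted p = 0.0695 to 0.194. The signs were those without the covariate.

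**Figure D3:**
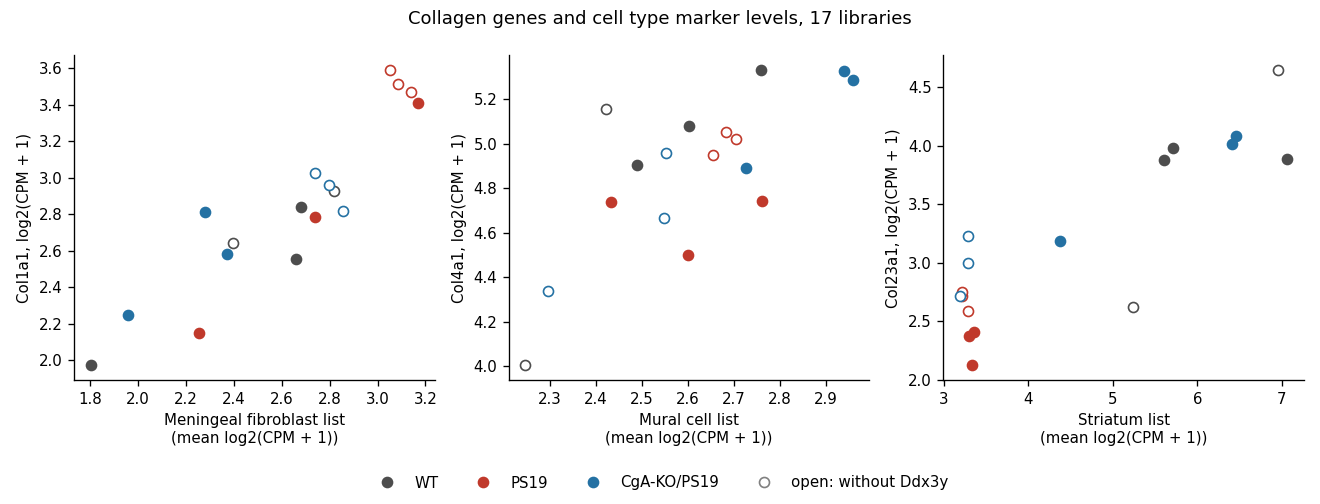
Each point is 1 of the 17 libraries: Col1a1 against the meningeal fibroblast level, Col4a1 against the mural cell level and Col23a1 against the striatal level, all as log2(CPM + 1), with open points for libraries without Ddx3y. The library lowest in the meningeal level is also lowest in Col1a1 within each genotype, WT replicate 4 and CgA-KO/PS19 replicate 6 are lowest in both Col4a1 and the mural level, and the striatal levels fall into separate clusters, with PS19 at 3.21 to 3.36.

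In the main edgeR fit none of the 8 basement membrane collagens was called in any comparison, while DESeq2 called Col15a1 lower in WT than in PS19 (adjusted p = 0.0248). The median log2 fold change was -0.07 for WT and -0.27 for CgA-KO/PS19. Col4a1 and Col4a2 encode the main chains of the type IV network found under all vessels, and start 21 bases apart on opposite strands of chromosome 8. Col4a1 was at 29.0, 32.8, 39.2, 15.1 and 34.7 CPM in WT, 21.6 to 32.2 CPM in PS19 (median 27.8) and 19.2 to 39.2 CPM in CgA-KO/PS19 (median 29.4). Col4a2 followed it at 42.8, 43.6, 46.3, 17.3 and 43.7 CPM in WT, 27.6 to 38.0 CPM in PS19 and 22.1 to 42.9 CPM in CgA-KO/PS19. WT replicate 4 was the lowest WT library for both. The log2 fold changes of Col4a1 were 0.13 ± 0.209 and 0.11 ± 0.199 and those of Col4a2 0.17 ± 0.204 and -0.02 ± 0.194 in WT and CgA-KO/PS19. Per length, Col4a2 was the most abundant collagen in PS19 at 5.21 ± 0.615 RPKM.

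The chains of the specialised networks were low. Col4a3 and Col4a4, whose starts are 72 bases apart on chromosome 1, were at 0.0866 to 1.28 and 0.203 to 1.10 CPM over all libraries. Col4a5 and Col4a6, which share a start region on chromosome X, were at 1.68 and 0.635 CPM on average in WT, 2.46 and 1.20 CPM in PS19, and 2.05 and 0.662 CPM in CgA-KO/PS19. No difference of these genes was called in the main edgeR fit. Col15a1, a collagen that ties basement membranes to the matrix around them, was at 4.17, 2.34, 3.12, 1.60 and 1.84 CPM in WT, 3.35 to 5.06 CPM in PS19 and 3.29 to 4.57 CPM in CgA-KO/PS19, with a log2 fold change of -0.65 ± 0.211 in WT (adjusted p = 0.0805) and -0.15 ± 0.196 in CgA-KO/PS19. Without WT replicate 1 the WT difference of Col15a1 was called (-0.87, adjusted p = 0.0132). Among the libraries without Ddx3y, 2 of them WT and the PS19 ones near-identical, the WT difference of Col15a1 was -1.48 (adjusted p = 0.0112). Among those with Ddx3y it was -0.13 (adjusted p = 0.838). Col18a1, the source of endostatin, was at 5.72 CPM in WT replicate 5, the library with the most Ttr, and had log2 fold changes of -0.17 and -0.28.

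Vessel markers were set beside Col4a1. The level of the 14 mural genes was 2.25 to 2.76 in WT, lowest in replicate 4, where Col4a1 was also lowest. In CgA-KO/PS19 it was 2.73 to 2.96 in replicates 1 to 3, with Col4a1 at 28.6 to 39.2 CPM, and 2.29 to 2.55 in replicates 4 to 6, with Col4a1 at 19.2 to 30.1 CPM. Within PS19 the orders differed, with the lowest mural level in replicate 1 (2.43) and the lowest Col4a1 value in replicate 2. Endothelial, astrocyte and striatal levels were likewise higher in CgA-KO/PS19 replicates 1 to 3 than in replicates 4 to 6, so these lists cannot be told apart there. In the main edgeR fit no mural gene was called in any comparison. Of the 16 endothelial genes only Vwf (von Willebrand factor) was called, lower at -0.77 in WT (adjusted p = 0.0297) and at -0.71 in CgA-KO/PS19 (adjusted p = 0.0287). Over all genes tested, 1.95% and 4.22% were lower in these comparisons.

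**Figure D4:**
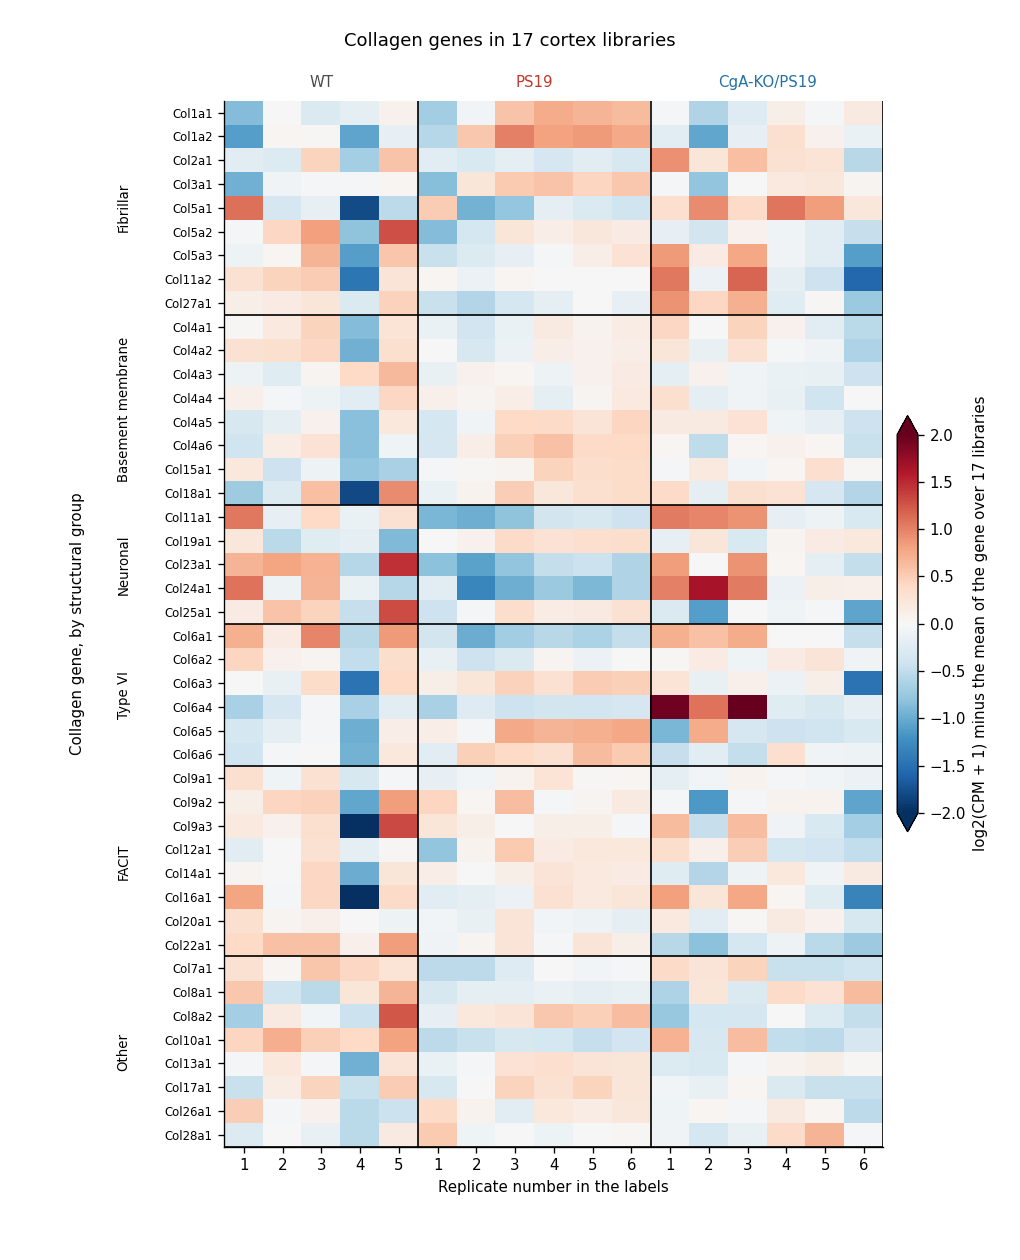
The 44 collagen genes are rows grouped by structure and the 17 libraries are columns grouped by genotype, coloured by log2(CPM + 1) minus the mean of that gene over all libraries, limited to 2 in either direction. PS19 replicates 3 to 6 are red for Col1a1, Col1a2 and Col3a1, all PS19 libraries are blue for Col11a1, Col23a1 and Col6a1, CgA-KO/PS19 replicates 1 and 3 are deep red for Col6a4, and WT replicate 4 is blue for many genes, 14 of which had 0 counts there.

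Type VI collagens form beaded filaments around cells and are made by fibroblasts, mural cells and some neurons. Col6a1, at chr10:76708792-76726168 on the minus strand, was the most abundant collagen per length in WT (8.61 ± 3.25 RPKM) and CgA-KO/PS19 (7.46 ± 2.44 RPKM) and ranked below Col4a2 in PS19 (3.81 ± 0.579 RPKM). It was at 43.2, 29.0, 51.6, 17.3 and 47.4 CPM in WT, 12.6 to 19.9 CPM in PS19 (median 16.9), and 42.9, 39.4, 43.8, 25.6, 25.9 and 18.5 CPM in CgA-KO/PS19. Only WT replicate 4 and CgA-KO/PS19 replicate 6 lay within the PS19 range. The log2 fold change was 1.18 ± 0.254 in WT (adjusted p = 0.00926), kept whichever library was left out, and 0.97 ± 0.244 in CgA-KO/PS19 (adjusted p = 0.0213), lost without PS19 replicate 2 or CgA-KO/PS19 replicate 1 or 2 with adjusted p = 0.0519 to 0.0525. Averaging the near-identical libraries ended both calls. The CgA-KO/PS19 difference was 1.41 (adjusted p = 0.00229) among the libraries with Ddx3y and 0.41 (adjusted p = 0.587) among those without, and the striatal covariate brought the WT difference to 0.20 (adjusted p = 0.688). Its partner Col6a2, which lies on the same strand of chromosome 10, was at 9.47 to 18.9 CPM in WT, 10.1 to 14.3 CPM in PS19 and 13.0 to 16.6 CPM in CgA-KO/PS19, with log2 fold changes of 0.29 ± 0.146 and 0.24 ± 0.140 that did not pass the test. Col6a3, the third chain of the classical trimer, had -0.50 and -0.69.

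Col6a4, Col6a5 and Col6a6 lie next to each other on the minus strand of chromosome 9. Col6a4 (chr9:105989454-106096783) was at 5.05, 2.31 and 5.33 CPM in CgA-KO/PS19 replicates 1 to 3 and at 0.258 to 0.375 CPM in replicates 4 to 6. It reached at most 0.521 CPM in WT and 0.307 CPM in PS19, with 0 counts in 3 of these 11 libraries, where the limit that a count of 0 allows is 0.164 to 1.03 CPM. The log2 fold change of 3.52 ± 0.837 against PS19 (adjusted p = 0.0166) was thus carried by 3 of 6 libraries, and among the libraries without Ddx3y it was 0.51 (adjusted p = 0.717). These are the 3 libraries of that genotype with striatal markers, at a list level of 4.37 to 6.45, and WT libraries, at 5.24 to 7.07, stayed at the PS19 level of Col6a4. Against WT the difference was 3.03 ± 0.906 (adjusted p = 0.0527), and was called by DESeq2 and by edgeR without PS19 replicate 1 or CgA-KO/PS19 replicate 4, 5 or 6 (adjusted p = 0.0298 to 0.0453). Exons of the predicted genes Gm47575 and Gm36993, neither among the genes tested, overlap those of Col6a4, so their reads may be counted with it. Col6a5 had log2 fold changes of -1.31 (WT) and -1.32 (CgA-KO/PS19) and Col6a6 of -0.97 and -0.99, none of them called. In CgA-KO/PS19, Col6a5 was called without CgA-KO/PS19 replicate 2 (-2.07, adjusted p = 0.0310) and Col6a6 without replicate 4 (-1.29, adjusted p = 0.0455).

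Of the 8 FACIT collagens, Col22a1 alone was called in the main edgeR fit. Col22a1, a collagen of tissue junctions at chr15:71795795-72034227 on the minus strand, was at 2.89, 3.41, 3.44, 2.17 and 4.30 CPM in WT, 1.82 to 2.54 CPM in PS19 and 1.02, 0.677, 1.305, 1.74, 1.03 and 0.780 CPM in CgA-KO/PS19. WT and PS19 overlapped, and each of the 6 CgA-KO/PS19 values was under the lowest value of the other genotypes. Col22a1 had a log2 fold change of -0.98 ± 0.215 against PS19 (adjusted p = 0.0117) and one of -1.57 ± 0.226 against WT (adjusted p = 0.00087), and both calls were kept whichever library was left out. In both sets of libraries the sign was the same, at -1.07 (adjusted p = 0.0119) with Ddx3y and -0.89 (adjusted p = 0.344) without it against PS19, and -1.67 (adjusted p = 0.0029) and -1.47 (adjusted p = 0.115) against WT. The striatal covariate left -1.04 against PS19 (adjusted p = 0.0226), whereas averaging the near-identical libraries ended the call against PS19 and kept that against WT. Against PS19 in WT the gene had 0.60 ± 0.221 by edgeR (adjusted p = 0.125), and DESeq2 called it. Exons of the antisense gene Gm16308 overlap it. The 7 other FACIT genes (Col9a1, Col9a2, Col9a3, Col12a1, Col14a1, Col16a1 and Col20a1) had log2 fold changes of -0.14 to 0.31 in WT and -0.59 to 0.18 in CgA-KO/PS19.

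Col10a1, known as the collagen of hypertrophic cartilage, was a rare transcript. At chr10:34389981-34397085 on the plus strand, it was at 0.955, 1.40, 1.01, 0.912 and 1.53 CPM in WT, 0 to 0.163 CPM in PS19 and 1.34, 0.159, 1.21, 0.0267, 0 and 0.144 CPM in CgA-KO/PS19. Every WT library was above every PS19 library, and CgA-KO/PS19 replicates 1 and 3, the near-identical pair, were at the WT level while the other 4 were at the PS19 level. In counts these were 8 to 197 in WT and 0 to 30 in PS19, where about 3 counts stand for 1 fragment, so the log2 fold change of 3.69 ± 0.888 (adjusted p = 0.0182) rests on few fragments. Without WT replicate 5 the adjusted p was 0.0521. In CgA-KO/PS19 the Col10a1 difference of 2.44 ± 0.842 was not called by edgeR (adjusted p = 0.0701) and was called by DESeq2 (adjusted p = 0.0206), by edgeR without CgA-KO/PS19 replicate 4 or 5 (adjusted p = 0.0261 and 0.0287) and in the libraries with Ddx3y (3.42, adjusted p = 0.0175). It was -1.08 in the libraries without Ddx3y (adjusted p = 0.625) and -0.34 with the striatal covariate (adjusted p = 0.816). An exon of Nt5dc1 overlaps Col10a1 on the opposite strand, and Nt5dc1 itself had a log2 fold change of 0.18 (adjusted p = 0.721) in WT.

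**Figure D5:**
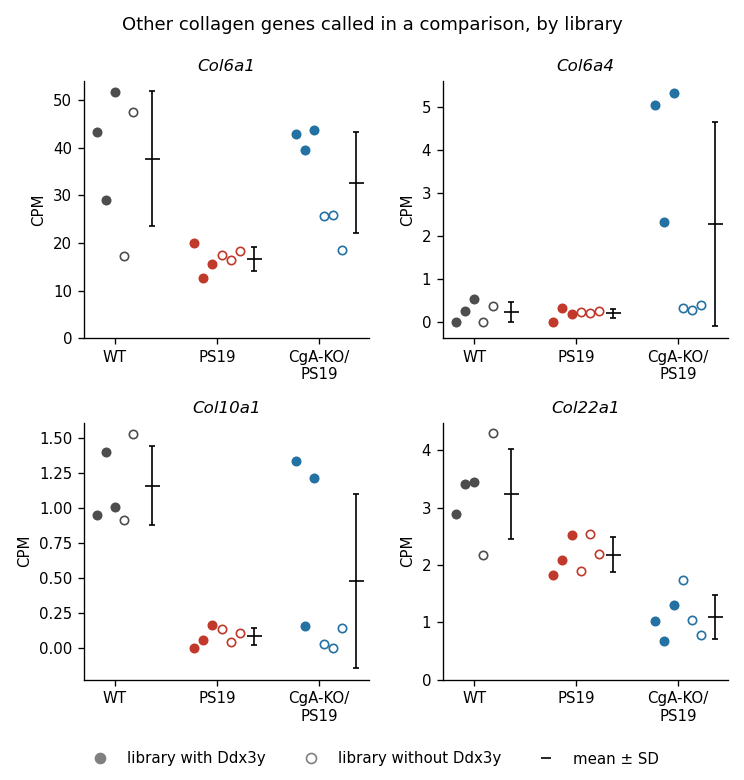
Values in CPM per library are plotted for the other 4 collagen genes called in a comparison, with the mean and SD beside the points and open points for libraries without Ddx3y. Col6a4 is at 2.31 to 5.33 CPM in 3 CgA-KO/PS19 libraries and at most 0.521 CPM in WT and PS19, and all 6 CgA-KO/PS19 libraries lie below the other genotypes for Col22a1.

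In the main edgeR fit the 7 other members of the last group were not called in any comparison, and DESeq2 called Col8a2. Col7a1, the anchoring fibril collagen, was at 1.11 to 2.01 CPM in WT and 0.416 to 1.04 CPM in PS19, which did not overlap (log2 fold change 1.03 ± 0.380, adjusted p = 0.123). In CgA-KO/PS19 it was 1.43 to 1.79 CPM in replicates 1 to 3 and 0.498 to 0.549 CPM in replicates 4 to 6. Col8a2, a collagen of Descemet's membrane, was at 3.997 CPM in WT replicate 5 and at 0.318 to 1.38 CPM in the other WT libraries, and had -1.32 ± 0.459 in CgA-KO/PS19 by edgeR (adjusted p = 0.0726) and a call by DESeq2 (adjusted p = 0.0292). Leaving out WT replicate 1, WT replicate 5 or CgA-KO/PS19 replicate 4 also gave a call for Col8a2 (adjusted p = 0.0285 to 0.0460). Col8a1, Col13a1, Col17a1, Col26a1 and Col28a1 had log2 fold changes of -0.52 to 0.47 in WT and -1.63 to 0.45 in CgA-KO/PS19.

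The makeup of the collagen RNA was summarised as the share of each group in the summed length-normalised level of all 44 genes. In PS19, type VI collagens took 14.9% to 19.1%, below the 20.3% to 27.0% of WT libraries and the 20.5% to 28.7% of CgA-KO/PS19 libraries. Fibrillar collagens took 10.52% to 13.3% of the WT total, 14.3% to 17.05% of that in PS19 and 14.2% to 17.8% of that in CgA-KO/PS19. For basement membrane collagens the ranges were 22.9% to 28.1% (WT), 27.2% to 30.5% (PS19) and 24.7% to 26.9% (CgA-KO/PS19). Neuronal collagens took 20.9% ± 2.98 (SD, n = 5) in WT, 18.2% ± 1.18 (n = 6) in PS19 and 18.9% ± 1.54 (n = 6) in CgA-KO/PS19. These shares sum to a fixed total, so that a larger share of one group lowers the others, and no test was made of them.

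Genes that build, cut, bind and remove collagen were followed through 5 lists. Of 22 genes of collagen synthesis in the endoplasmic reticulum, 1 was higher and 0 lower in both comparisons with PS19. This was Fkbp14, a folding enzyme, at 0.46 in WT (adjusted p = 0.0279) and 0.38 in CgA-KO/PS19 (adjusted p = 0.0441). The prolyl hydroxylases, lysyl hydroxylases and the chaperone gene Serpinh1 were not called. Of 13 genes of procollagen processing and cross-linking tested, 2 were higher in WT, the procollagen protease genes Adamts3 at 0.82 (adjusted p = 0.00914) and Tll1 at 0.90 (adjusted p = 0.0373), and 0 were called in CgA-KO/PS19 against PS19. Of 11 receptor genes tested, 1 was lower in each comparison, Mrc2, the endocytic receptor that takes up collagen fragments, at -0.83 in WT (adjusted p = 0.0495) and -0.85 in CgA-KO/PS19 (adjusted p = 0.0264).

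Of 9 genes of collagen breakdown tested, the protease inhibitor gene Timp2 was higher in WT at 0.69 (adjusted p = 0.0167) and the protease gene Ctsk lower at -0.65 (adjusted p = 0.0469), and 0 were called in CgA-KO/PS19. Among 16 non-collagen partners of basement membranes, the laminin gene Lamb1 was higher at 0.97 (adjusted p = 0.00119) and Lama4, a laminin of vessels, lower at -0.54 (adjusted p = 0.0433) in WT. In CgA-KO/PS19, Fn1 (fibronectin) was lower at -0.79 (adjusted p = 0.0112) and the laminin gene Lamb3 at -0.92 (adjusted p = 0.0404). The median log2 fold change lay between -0.18 and 0.09 for the 5 lists in WT and between -0.24 and 0.15 in CgA-KO/PS19, beside -0.01 and 0.03 over all genes tested. Of 12 choroid plexus markers, 8 were higher in WT than in PS19, beside 3.95% of all genes tested. Their list level was 3.87 in WT replicate 5, 0.86 to 1.09 in the other WT libraries and 0.46 to 0.60 in PS19. The part of choroid plexus in the collagen results was not tested.

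The calls depended on which libraries entered. Among the libraries with Ddx3y alone, 3 of 44 collagen genes were higher in WT than in PS19 (Col11a1, Col23a1 and Col6a1, against 0.453% of all genes) and 0 were lower (0.139%). In the same libraries 13 of 44 (29.5%) were higher in CgA-KO/PS19, against 14.9% of all genes, and 2 were lower (Col22a1 and Col6a6), against 16.2%. Against WT, CgA-KO/PS19 had 2 higher (Col27a1 and Col6a4, 9.16% of all genes) and 1 lower (Col22a1, 11.5%). Among the libraries without Ddx3y, Col10a1 alone was higher in WT than in PS19 (2.95% of all genes) and 4 were lower (Col1a1, Col1a2, Col15a1 and Col19a1, against 2.86%), with 2 WT libraries in the fit. Between CgA-KO/PS19 and PS19 0 of 44 were called there in either direction by edgeR's quasi-likelihood test (3 higher and 9 lower at an unadjusted p under 0.05, DESeq2 not run), where 0.543% and 0.263% of all genes were. Against WT, Col15a1 was higher (1.44% of all genes) and Col7a1 and Col10a1 were lower (1.61%). The PS19 libraries without Ddx3y were all near-identical, and the near-identical CgA-KO/PS19 pair was among those with Ddx3y. If such libraries are repeats of 1 sample, the adjusted p-values of both splits are too small.

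With PS19 replicates 4 to 6 averaged into 1 library and CgA-KO/PS19 replicates 1 and 3 into 1, Col23a1 in WT was the only collagen gene higher than in PS19 (1.58% of all genes), and 0 were lower (0.339%). In CgA-KO/PS19 against PS19 0 were called by edgeR's quasi-likelihood test (6 higher and 1 lower at an unadjusted p under 0.05, DESeq2 not run), where 0.460% of all genes were higher and 0.237% lower. Against WT, Col22a1 stayed lower (1.20%) and 0 were higher (1.38%). The meningeal covariate left 2 of 44 higher in WT than in PS19 (3.08% of all genes) and 0 lower (0.945%), 0 higher (0.781%) and 0 lower (0.650%) in CgA-KO/PS19 against PS19, and 0 higher (3.43%) and 2 lower (Col22a1 and Col25a1, 3.05%) against WT. Under the striatal covariate 1 was higher in WT (Col8a1, 10.0% of all genes) and 4 were lower (Col12a1, Col6a4, Col11a2 and Col4a5, 6.91%). The same covariate gave 1 higher (Col24a1, 4.03%) and 2 lower (Col22a1 and Col17a1, 2.81%) in CgA-KO/PS19 against PS19, and 2 higher (Col27a1 and Col6a4, 9.86%) and 1 lower (Col22a1, 11.7%) against WT. DESeq2 on all libraries called 6 higher (3.47% of the 39903 genes it tested) and 3 lower (2.53%) in WT, 8 higher (5.86%) and 3 lower (4.06%) in CgA-KO/PS19 against PS19, and 1 higher (3.80%) and 2 lower (2.77%) against WT.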

How the data were processed

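PolyA RNA of prefrontal cortex was sequenced by the authors in 17 libraries, and the deposited values are whole-number read counts per gene for the 3 genotypes. Submitters' processing notes name FastQC, Trimmomatic 0.39, STAR 2.7.10b, StringTie 1.3.6 and DESeq2 1.42.0, with the mm10 build. The annotation release and the strand setting of the counting are not given in the sources used here. Low counts clustered at multiples of about 3, so 1 fragment stood for about 3 counts, and count intervals would be too narrow if read per count. A count of 0 was taken to allow 3 fragments, or 9 counts, which covers counting error only.

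Genes were filtered with edgeR 4.0.16 (R 4.3.3), which left 23062 of 56953, and normalised with TMM. A single quasi-likelihood model over the 3 genotypes gave the differences, adjusted by the Benjamini-Hochberg method over all genes tested, with an adjusted p of 0.05 as the threshold. The standard errors were taken from the same model. On simulated counts with 200 genes changed by a log2 fold change of 2 between WT and PS19, 191 were recovered with 11 false calls among 22913 genes. CPM uses the TMM-scaled library size, RPKM divides by exon length from GENCODE M21 (GRCm38), and promoter windows come from RefSeq (GRCm38.p6). Marker levels are the mean of log2(CPM + 1) over a list. Figures were drawn with matplotlib 3.10.9 in Python 3.11.15.

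The collagen groups, marker lists and pathway lists, and the choice of collagen genes itself, were made with earlier results of these data known. Named in the text are every collagen gene called in any comparison, the fibrillar, basement membrane and neuronal groups, and up to 4 called genes per list with its defining markers. Other collagen genes, and the 2 splits by Ddx3y, were chosen after their values were seen. Alternatives were DESeq2, other size factors, filters, robust fits, fits of 2 genotypes, leaving out each library, a replicate block, the levels of Ddx3y, meningeal or striatal markers as a covariate, and averaging of near-identical libraries. Replicate numbers mark no shared animal or litter in the labels.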

Additional observations from a re-analysis of the deposited data

Results flagged for a closer look

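In 12 of 132 groups of collagen CPM values, 1 library stood apart from the others by Dixon's criterion. For independent, normally distributed values chance meets it in about 1 in 20 groups. Near-identical libraries in PS19 and CgA-KO/PS19 break that condition, so the 2 rates cannot be compared. Col3a1 was low in 1 library of each genotype: 0.550 CPM in WT replicate 1 (1.86 to 2.08 in the others), 0.656 CPM in PS19 replicate 1 (2.55 to 3.47) and 0.737 CPM in CgA-KO/PS19 replicate 2 (1.91 to 2.51). The meningeal list was also lowest in these 3 libraries of their genotypes, at 1.80, 2.25 and 1.96. WT replicate 4, the shallowest library, was low for Col11a2 at 2.85 CPM (11.6 to 14.0 in the others) and for Col4a2 at 17.3 CPM (42.8 to 46.3). Col11a2 was also low in PS19 replicate 2 at 8.70 CPM (9.44 to 9.80). Col6a3 was at 0 CPM in CgA-KO/PS19 replicate 6 (1.49 to 2.37 in the others). Col6a5 was high in CgA-KO/PS19 replicate 2 at 2.31 CPM (0.0535 to 0.606). Col20a1 was high in PS19 replicate 3 at 2.50 CPM (1.56 to 1.81). PS19 replicate 1 was low for Col8a1 at 2.84 CPM (3.21 to 3.38) and high for Col28a1 at 1.09 CPM (0.369 to 0.479). Col8a2 was high in WT replicate 5, the library with the most Ttr, at 3.997 CPM (0.318 to 1.38).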

How the results depend on the processing

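Counts of collagen genes called moved with the setting, as did those over all genes tested. WT against PS19 gave 5 higher, and 2 with a replicate block, 3 with Ddx3y as a covariate, 2 with the meningeal and 1 with the striatal level as a covariate, 1 with near-identical libraries averaged, 3 in the libraries with Ddx3y and 1 in those without. Over all 23062 genes, 513 were higher with the replicate block and 974 with the Ddx3y covariate, beside 911 in the main fit. The 0 lower became 3 with DESeq2, 1 with at least 10 counts in every library (508 of 14521 genes), 4 with the striatal covariate and 4 in the libraries without Ddx3y. CgA-KO/PS19 against PS19 gave 5 higher, and 8 with DESeq2, 1 with the replicate block (388 of 23062 genes, beside 1268 in the main fit), 0 with the meningeal and 1 with the striatal covariate, 0 averaged, 13 with Ddx3y and 0 without. The 1 lower became 3 with DESeq2, 2 with only the 2 genotypes (1319 of 21837 genes), 2 with the Ddx3y covariate (1024 of 23062), 0 with the meningeal and 2 with the striatal covariate, 0 averaged, 2 with Ddx3y and 0 without. Against WT, the 0 higher in CgA-KO/PS19 became 1 with DESeq2, 2 with the striatal covariate, 2 with Ddx3y and 1 without. The 1 lower became 2 with DESeq2, the Ddx3y covariate (814 of 23062 genes), the meningeal covariate or the libraries without Ddx3y. Leaving out 1 library at a time gave 3 to 5 higher and 0 to 2 lower in WT, 3 to 8 and 1 to 4 in CgA-KO/PS19 against PS19, and 0 to 2 and 1 to 3 against WT. In the same fits, of 22010 to 23609 genes tested, 505 to 1052 were higher and 127 to 606 lower in WT. In CgA-KO/PS19 against PS19, 616 to 2018 were higher and 403 to 1804 lower, and against WT 341 to 1053 and 286 to 1067. With the meningeal covariate the log2 fold change turned to 0.102 for Col3a1 in WT, and to 0.0333 for Col1a1 and 0.364 for Col3a1 in CgA-KO/PS19. The cause of these changes was not tested. The same-numbered libraries correlated at -0.232 to 0.437, so the replicate numbers were not read as pairs. Depth limits what can be said of WT replicate 4.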
